A study of Homo sapiens with 6 samples.

Results

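The genes described here encode the glucocorticoid receptor and the cytosolic chaperone machinery that holds it ready for hormone. They were the 10 genes NR3C1, HSP90AA1, HSP90AB1, HSPA8, HSPA4, STIP1, PTGES3, FKBP4, AHSA1 and CDC37, picked by symbol from a table with 27234 gene rows, and all 10 passed the filter on low counts. RNA came from A673, a human Ewing sarcoma cell line with the EWS-FLI1 fusion, grown in medium with fetal bovine serum. The siFLI1 group (3 libraries) received siRNA against FLI1 and the siControl group (3 libraries) a scrambled siRNA, and cells of both were harvested after 48 h. The labels name no glucocorticoid treatment, so the receptor was measured in cells with no hormone added by the study, as far as the labels say. The series concerns binding of this receptor by ETS proteins, the family to which FLI1 belongs, and the comparison asks whether transcripts of the receptor and its chaperones differ when FLI1 is targeted.

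The glucocorticoid receptor is a nuclear receptor that stays in the cytoplasm until it binds hormone, then enters the nucleus and regulates genes. HSP70 proteins first bind the newly made receptor, and the adaptor STIP1 passes it to HSP90, which folds its ligand-binding domain into a form that can take up hormone. The small co-chaperone p23 (PTGES3) stabilises this complex, the immunophilin FKBP4 links it to transport towards the nucleus, and AHSA1 speeds up the ATPase cycle of HSP90, while CDC37 brings kinases rather than receptors to the same chaperone.

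Several of these genes are textbook targets of heat shock factor 1, which binds inverted repeats of GAA, and the study is about ETS factors, which bind a GGAA core. Promoter windows from RefSeq (GRCh38.p14, 250 bases before to 50 bases after a start site) were found for 9 of the 10 genes, 20 windows in all. A heat shock element of 3 units (TTC, GAA and TTC, or GAA, TTC and GAA on the other strand, with 2 bases of any kind between neighbouring units) was present in 3 of the 20 windows, 1 each of HSP90AA1, HSP90AB1 and HSPA8, against 0.49% of 35116 windows of all genes. The matching stretches are shown because they are the members' matches to the element of the heat shock response, and capitals mark the element.
HSP90AA1, chr14:102087112-102087140, minus strand: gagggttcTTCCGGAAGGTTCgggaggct
HSP90AB1, chr6:44247770-44247798, plus strand: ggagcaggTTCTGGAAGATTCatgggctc
HSP90AB1, chr6:44247823-44247851, plus strand: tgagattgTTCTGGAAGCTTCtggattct
HSPA8, chr11:123062346-123062374, minus strand: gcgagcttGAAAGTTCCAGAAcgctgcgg
HSPA8, chr11:123062171-123062199, minus strand: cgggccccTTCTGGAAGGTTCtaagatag

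An ETS core (CCGGAAG, or CTTCCGG on the other strand) was present in 3 of the 20 windows, of NR3C1, HSP90AA1 and AHSA1, and in 10.3% of all windows. Capitals mark it below, for the receptor and for the co-chaperone with the largest fold difference.
NR3C1, chr5:143405397-143405419, minus strand: gcgggcggCTTCCGGgacgcgct
AHSA1, chr14:77458020-77458042, plus strand: gggaggagCCGGAAGttaaggag
In HSP90AA1 the core was read on both strands and overlapped the heat shock element shown above, so those matches are not independent of it. The full glucocorticoid response element (AGAACA and TGTTCT with 3 bases of any kind between them, which reads the same on both strands) had no match in the 20 windows and was found in 0.00285% of all windows. The HSP90AA1 and HSPA8 stretches lie in exons of annotated transcripts in GENCODE 29, the AHSA1 stretch lies there with 13 of its 23 bases, and those of NR3C1 and HSP90AB1 lie outside exons. A match describes letters in a window and does not show that a factor was bound.

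Deposited counts assigned to genes ran from 417145 to 1893606 in siFLI1 libraries and from 1248395 to 1790051 in siControl libraries, and levels are given as CPM, counts set against library sizes that were adjusted by the TMM method. The lowest total was that of siFLI1 replicate 3, where 10.1% of the total in the column header was assigned to genes, and where 1 count is worth 2.68 CPM against 0.539 to 0.855 CPM in the other libraries. That library and siControl replicate 1, whose scaling factor of 1.23 was the highest of the 6 (the others ran from 0.936 to 0.987), stood apart on principal components. FLI1, the target, which also reads the fusion where counts fall in the shared 3' part, stood at 19.0, 42.5 and 24.1 CPM in siFLI1 replicates 1, 2 and 3 and 63.0, 69.1 and 62.4 CPM in siControl replicates 1, 2 and 3. Every siFLI1 library was below every siControl library, though the log2 fold change of −1.16 ± 0.36 (SE) did not pass over all genes (adjusted p = 0.17 in edgeR). Of markers fixed for the cell type, CD99, NKX2-2, STEAP1, LIPI and CAV1 were all detected. They summed to 1652 to 1821 CPM in siFLI1 and 2966 to 3171 CPM in siControl. CAV1 alone made up most of this sum, with siFLI1 libraries averaging 1184 CPM against 2129 CPM for siControl libraries. For STEAP1, LIPI and CAV1 every siFLI1 library lay below every siControl library, while for CD99 and NKX2-2 the groups overlapped. Of 4 leukocyte, 4 epithelial and 4 endothelial markers, 1, 2 and 1 had 0 counts in all libraries. The epithelial markers summed to at most 8.03 CPM and the endothelial markers to at most 5.36 CPM in any library. The leukocyte sum was 68.2 to 83.7 CPM in siFLI1 and 44.5 to 59.8 CPM in siControl. It came mostly from the lysosomal gene CD68 except in siFLI1 replicate 3, where PTPRC gave 42.8 CPM, and its part in the results was not tested. In bulk RNA, fewer cells of a kind and less RNA per cell cannot be told apart.

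None of the 10 genes passed the test over all genes. The receptor gene NR3C1 lay higher in every siFLI1 library than in every siControl library, while the chaperone HSP90AA1 and the co-chaperones AHSA1, CDC37 and PTGES3 lay lower in every siFLI1 library. At an adjusted p of 0.05 the edgeR quasi-likelihood test called 0 of the 10. Of 9420 tested genes it called 1.45% in either direction, 1.34% higher and 0.117% lower in siFLI1, and DESeq2 and limma-voom also called 0 of the 10. At an unadjusted p below 0.05 it found 0 of the 10 higher and 2 lower, HSP90AA1 and AHSA1, against 6.62% of all genes higher and 4.13% lower. Groups did not overlap for 5 of the 10, with 1 higher in siFLI1 against 8.93% of all genes and 4 lower against 7.71%. The median log2 fold change was −0.36 over the 10 genes and −0.39 over the 9 chaperone genes, against 0.01 over all tested genes. These counts describe genes that were chosen with earlier results of the same libraries known.

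**Figure D1:**
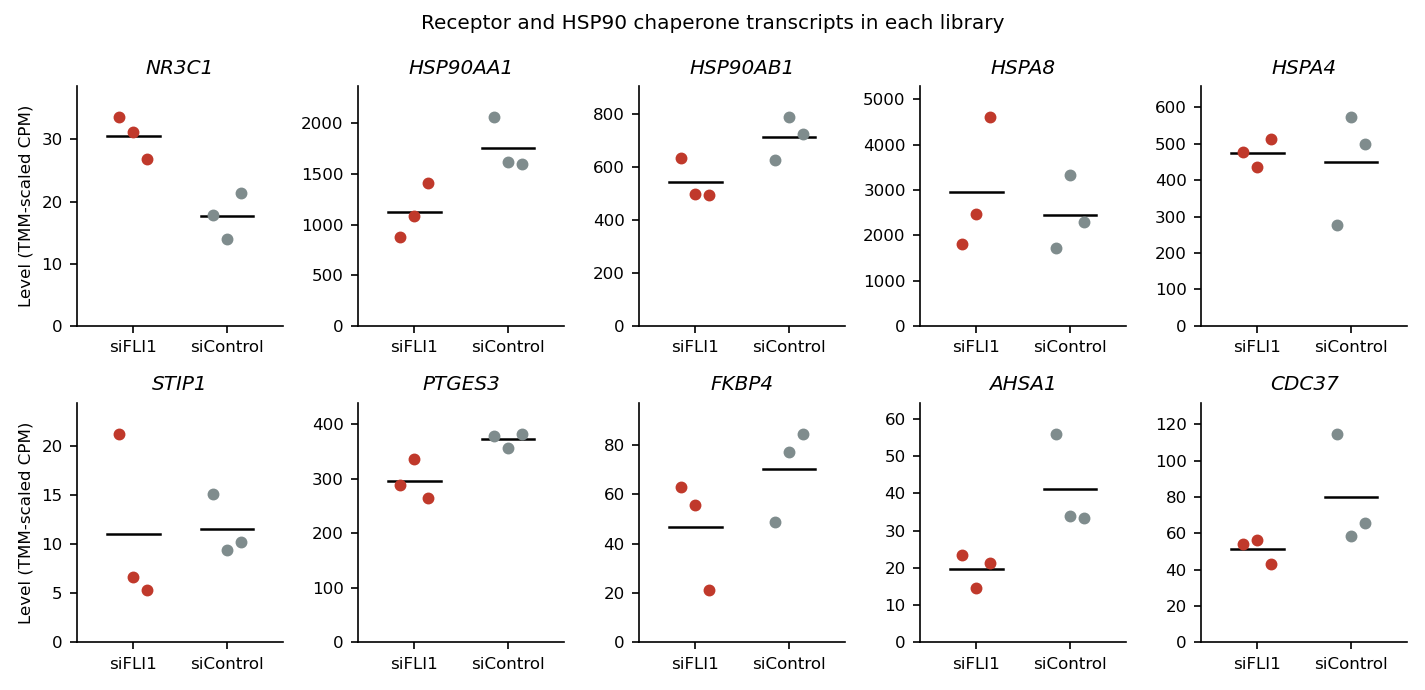
CPM of each of the 10 genes by library, TMM-scaled, on axes that start at 0, with siFLI1 in red on the left and siControl in grey on the right of each panel. Points are libraries, in order of replicate number, and bars are means of 3. NR3C1 separates upward in siFLI1 at 30.5 against 17.7 CPM, and HSP90AA1, PTGES3, AHSA1 and CDC37 separate downward.

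The receptor gene NR3C1 (row NM_001018077, chromosome 5, 143277931 to 143435512, minus strand, hg38) had 60, 47 and 10 counts in siFLI1 replicates 1, 2 and 3, and 33, 24 and 25 counts in siControl replicates 1, 2 and 3. Its levels were 33.5, 31.2 and 26.8 CPM in siFLI1 and 17.8, 14.1 and 21.4 CPM in siControl. The lowest siFLI1 library was therefore above the highest siControl library. By the exact Poisson interval of its 10 counts, however, siFLI1 replicate 3 is bounded only between 12.8 and 49.2 CPM (95%, counting error only), a range that takes in all siControl values. The group means were 30.5 ± 3.44 CPM in siFLI1 and 17.7 ± 3.66 CPM in siControl (SD, n = 3 each), which is 0.81 ± 0.39 (SE) as a log2 fold change, with a 95% interval of −0.04 to 1.65. In edgeR the unadjusted p was 0.0592 and the adjusted p 0.495. Each of 15 alternative fits gave a positive value, from 0.66 to 0.95, with adjusted p between 0.357 and 0.739. The row ends at the same base as the gene in GENCODE 29 and no other row of the table overlapped it.

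The genes whose pattern over the 6 libraries was most like that of NR3C1 were ACLY, FOS and SDC2. Likeness was the root mean square difference between centred log2(CPM + 1) profiles, searched over 8338 other genes with a mean of at least 10 CPM, and was 0.11, 0.11 and 0.12 in that order. ACLY, which makes cytosolic acetyl-CoA for lipid synthesis, averaged 56.6 ± 3.12 CPM in siFLI1 and 31.0 ± 4.09 CPM in siControl (SD, n = 3 each). SDC2, a cell-surface heparan sulfate proteoglycan, averaged 425.6 ± 46.6 CPM in siFLI1 and 255.6 ± 28.6 CPM in siControl. FOS, an AP-1 subunit, averaged 19.0 ± 2.88 CPM in siFLI1 and 12.8 ± 2.72 CPM in siControl. None of these 3 passed over all genes in edgeR (adjusted p = 0.274 for ACLY, 0.707 for FOS and 0.227 for SDC2). Because they were picked for likeness to NR3C1, their higher siFLI1 means follow from the choice. Whether they are regulated together with NR3C1 was not tested.

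The cytosolic HSP90 paralogs, which clamp round the receptor as dimers, came next. HSP90AA1, the stress-inducible paralog (row NM_005348, chromosome 14, 102080738 to 102087175, minus strand), had 874, 1087 and 1411 CPM in siFLI1 replicates 1, 2 and 3 and 2059, 1619 and 1597 CPM in siControl replicates 1, 2 and 3. All siFLI1 libraries lay below all siControl libraries, and each library held 527 counts or more of the gene. The means were 1124 ± 270.5 CPM in siFLI1 and 1758 ± 260.3 CPM in siControl (SD, n = 3 each). On the log2 scale the difference was −0.65 ± 0.30 (SE), with a 95% interval of −1.30 to −0.0010. In edgeR the unadjusted p was 0.0497 and the adjusted p 0.463. The value kept its sign in all 15 alternatives, between −0.84 and −0.50. Without siFLI1 replicate 3 and siControl replicate 1, a choice made after the data were seen, it was −0.72 ± 0.19 with an edgeR adjusted p of 0.0719, the lowest of its alternatives, which reached 0.777.

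HSP90AB1, the constitutive paralog (row NM_007355, chromosome 6, 44246958 to 44253888, plus strand), was at 635, 499 and 495 CPM in siFLI1 and at 628, 788 and 724 CPM in siControl. The groups overlapped, because siFLI1 replicate 1 lay above siControl replicate 1. The means were 543 ± 79.4 CPM in siFLI1 and 713 ± 80.4 CPM in siControl (SD, n = 3 each). On the log2 scale the difference was −0.39 ± 0.26 (SE), with a 95% interval of −0.95 to 0.17 and an adjusted p of 0.66 in edgeR, and all 15 alternatives were negative. GENCODE 29 lists 4 pseudogenes named after the HSP90AA family and 5 after HSP90AB. Of pseudogenes so named the table holds HSP90AB4P, with 4, 0 and 2 counts in siFLI1 and 0 in each siControl library. Reads could be split between the genes and such copies, so the level of each paralog is uncertain to that extent.

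Taken as a sum, HSP90AA1 and HSP90AB1 stood at 1508, 1586 and 1906 CPM in siFLI1 replicates 1, 2 and 3 and at 2687, 2407 and 2321 CPM in siControl replicates 1, 2 and 3. The groups were apart, and the siFLI1 mean was 0.674 times the siControl mean, from 0.627 to 0.705 times when 1 library was left out. It was 0.611 times under scaling by total counts. The ratio of HSP90AA1 to HSP90AB1 did not separate the groups. It was 1.38, 2.18 and 2.85 in siFLI1 and 3.28, 2.06 and 2.21 in siControl, a difference of −0.38 that came to 0.0035 without siControl replicate 1 and to −0.00016 without siFLI1 replicate 1. Reads could be shared with pseudogene copies, and PCR copies may remain in the counts. These ratios therefore say how the pair shifted between libraries and not which transcript was more abundant.

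Receptor and chaperone values were also set against each other, a quantity added after the values were seen and given without a test. NR3C1 stood at 22.2, 19.7 and 14.04 CPM per 1000 CPM of HSP90AA1 and HSP90AB1 in siFLI1 replicates 1, 2 and 3. In siControl replicates 1, 2 and 3 it stood at 6.61, 5.84 and 9.20. The siFLI1 mean was 2.58 times the siControl mean, between 2.34 and 3.00 times when any 1 library was left out. The groups did not overlap. NR3C1 was higher and the HSP90 sum lower in every siFLI1 library, so the quotient had to separate. Its separation is therefore not a result apart from those given above. This quantity does not depend on library scaling, since the scaling factor cancels within a library.

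**Figure D2:**
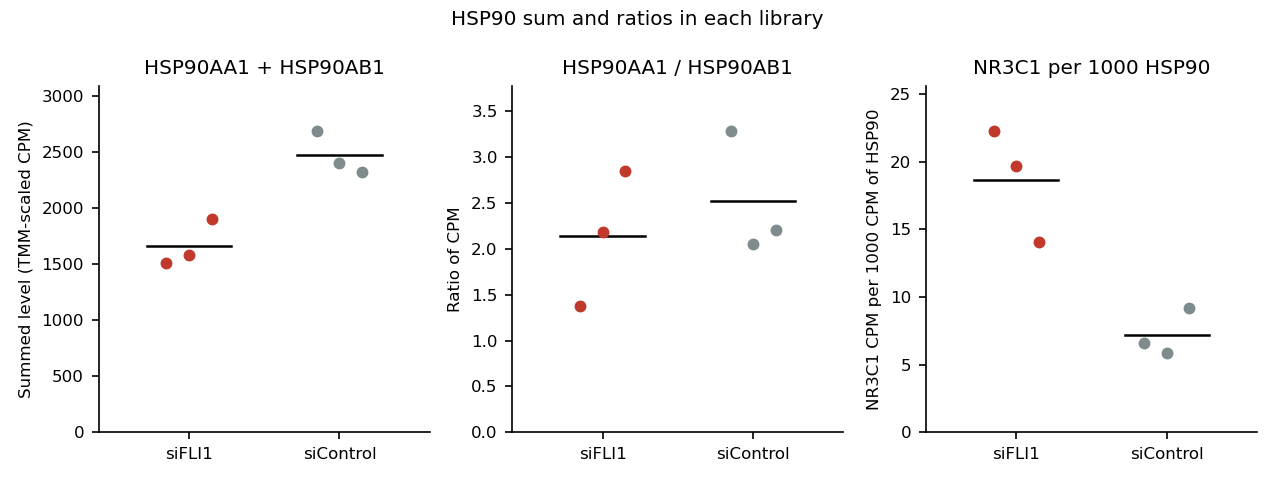
Sum of HSP90AA1 and HSP90AB1 in TMM-scaled CPM (left), ratio of HSP90AA1 to HSP90AB1 (middle) and NR3C1 CPM per 1000 CPM of that sum (right), with siFLI1 in red on the left and siControl in grey on the right of each panel. Points are libraries and bars are means of 3. The sum and the receptor quantity separate the groups, at 1667 against 2472 CPM and 18.7 against 7.22, while the ratio of the paralogs overlaps. Separation of the receptor quantity follows from that of NR3C1 and that of the sum.

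By the same measure the genes most like HSP90AA1 over the 6 libraries were SMAD1, MTHFD2 and MRPS35, at differences of 0.033, 0.056 and 0.081. MTHFD2, a mitochondrial enzyme of one-carbon folate metabolism, averaged 109 ± 28.3 CPM in siFLI1 and 164 ± 17.8 CPM in siControl (SD, n = 3 each). MRPS35, a mitochondrial ribosomal protein, averaged 76.0 ± 20.4 CPM in siFLI1 and 115 ± 8.37 CPM in siControl. SMAD1, a BMP signal transducer, averaged 18.9 ± 5.07 CPM in siFLI1 and 30.1 ± 3.83 CPM in siControl. Their edgeR adjusted p ran from 0.424 to 0.565. These genes too were picked by likeness, so their lower siFLI1 means follow from the choice.

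Among the members that load the receptor onto HSP90 the groups overlapped for all 3. HSPA8, the constitutive cytosolic HSP70 (chromosome 11, 123057492 to 123062335, minus strand), had 1801, 2479 and 4605 CPM in siFLI1 replicates 1, 2 and 3 and 1729, 3326 and 2297 CPM in siControl replicates 1, 2 and 3. The highest value was that of siFLI1 replicate 3, and the groups overlapped widely. Its log2 fold change of 0.27 ± 0.39 (SE), with a 95% interval of −0.57 to 1.12 and an adjusted p of 0.87 in edgeR, turned to −0.20 without siFLI1 replicate 3 and to −0.40 when siControl replicate 1 was left out as well. GENCODE 29 lists 17 pseudogenes of HSPA8, so its reads could be shared with copies.

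HSPA4, an HSP110-type exchange factor for HSP70 (chromosome 5, 133051970 to 133105017, plus strand), was at 477, 436 and 511 CPM in siFLI1 and at 277, 572 and 498 CPM in siControl. Within siControl the low value of replicate 1 set the spread. Its log2 fold change of 0.08 ± 0.29 (SE), with a 95% interval of −0.55 to 0.71 and an adjusted p of 0.952 in edgeR, was −0.21 without siControl replicate 1 and −0.0029 under scaling by total counts. The GENCODE gene runs 1432 bases past the 3' end of the row counted, so 3' reads in that stretch would not be in these counts. STIP1, the HSP70-HSP90 organising protein (chromosome 11, 64186115 to 64204548, plus strand), had 38, 10 and 2 counts in siFLI1 and 28, 16 and 12 counts in siControl. At this depth its 95% interval spans −1.18 to 1.30 on the log2 scale, around a value of 0.06 ± 0.58 (SE) that was −0.90 without siFLI1 replicate 1 and −0.11 under scaling by total counts. Its adjusted p in edgeR was 0.984.

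Of the other co-chaperones among the members, AHSA1 had the largest fold difference. AHSA1, the activator of the HSP90 ATPase (row NM_001321441, chromosome 14, 77457877 to 77469472, plus strand), had 42, 22 and 8 counts in siFLI1 replicates 1, 2 and 3 and 104, 58 and 39 counts in siControl replicates 1, 2 and 3. Its levels were 23.5, 14.6 and 21.4 CPM in siFLI1 and 56.0, 34.0 and 33.3 CPM in siControl, so the groups were apart and siControl replicate 1 stood above its own group. The siFLI1 mean of 19.8 ± 4.64 CPM was 48.3% of the siControl mean of 41.1 ± 12.9 CPM (SD, n = 3 each). On the log2 scale the difference was −1.07 ± 0.40 (SE), with a 95% interval of −1.92 to −0.22. In edgeR the unadjusted p was 0.0172 and the adjusted p 0.302. All 15 alternatives were negative, from −1.27 to −0.80, with adjusted p between 0.225 and 0.663. Without siControl replicate 1 the value was −0.80 and the unadjusted p in edgeR 0.0813.

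PTGES3, the p23 co-chaperone (chromosome 12, 56663341 to 56687997, minus strand), was at 290, 337 and 265 CPM in siFLI1 and at 380, 356 and 383 CPM in siControl. The groups were apart by a narrow margin. Its means were 297 ± 36.5 CPM in siFLI1 and 373 ± 14.6 CPM in siControl (SD, n = 3 each), or −0.32 ± 0.24 (SE) on the log2 scale, with a 95% interval of −0.84 to 0.19 and an adjusted p of 0.706 in edgeR. CDC37, the kinase co-chaperone (chromosome 19, 10391133 to 10403595, minus strand), was at 54.2, 56.5 and 42.8 CPM in siFLI1 and at 115, 58.6 and 65.8 CPM in siControl. The groups were apart by a narrow margin. By exact Poisson intervals (95%, counting error only), siFLI1 replicate 2 lies between 45.1 and 69.8 CPM and siControl replicate 2 between 47.6 and 71.2 CPM. Far above the rest stood siControl replicate 1. The value of −0.62 ± 0.32 (SE) on the log2 scale, with a 95% interval of −1.31 to 0.08 and an adjusted p of 0.539 in edgeR, was −0.28 ± 0.31 without that library. FKBP4, the immunophilin (chromosome 12, 2794942 to 2805421, plus strand), was at 63.2, 55.8 and 21.4 CPM in siFLI1 and at 49.0, 77.3 and 84.6 CPM in siControl. The lowest value, siFLI1 replicate 3, rests on 8 counts, and the groups overlapped. The value of −0.49 ± 0.36 (SE) on the log2 scale, with a 95% interval of −1.27 to 0.29 and an adjusted p of 0.702 in edgeR, was −0.23 without that library.

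**Figure D3:**
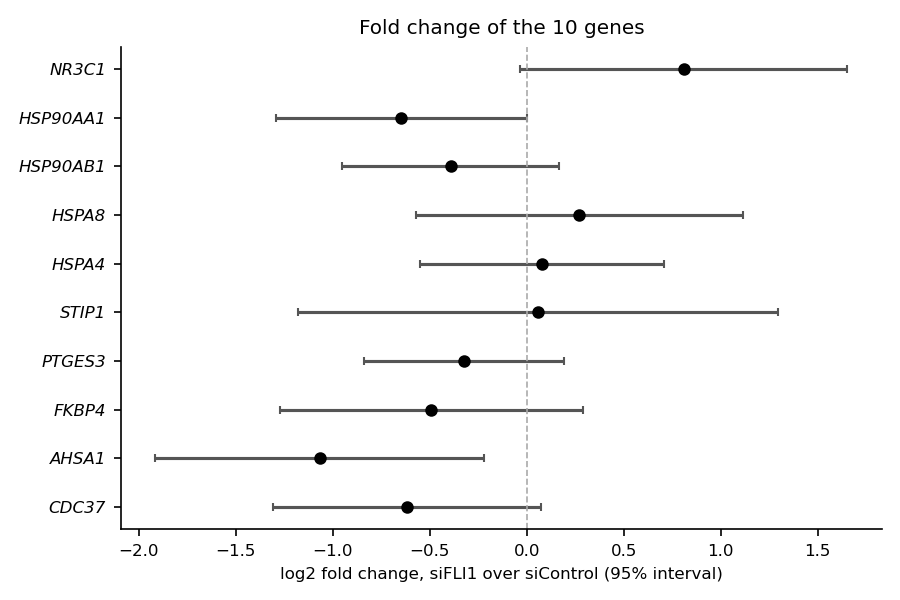
Log2 fold change of siFLI1 over siControl for the 10 genes, with 95% intervals from the edgeR fit, unadjusted over genes. The intervals of HSP90AA1 and AHSA1 lie below 0, that of NR3C1 reaches −0.04 at its lower end, and that of STIP1 is the widest.

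Beyond the 10 genes, lists of related chaperones were described by counts from the same fit. Of 13 other HSP90 partner proteins 12 were tested, 0 passed, and 6 lay above and 6 below 0 on the log2 scale (median −0.02). CDC37L1, a CDC37-like protein, averaged 36.8 ± 10.1 CPM in siFLI1 and 69.7 ± 9.19 CPM in siControl (SD, n = 3 each), or −0.99 ± 0.32 (SE) on the log2 scale with an adjusted p of 0.202 in edgeR. SUGT1, which couples HSP90 to kinetochore assembly, averaged 137 ± 5.32 CPM in siFLI1 and 213 ± 45.7 CPM in siControl (−0.63 ± 0.25, adjusted p = 0.377). FKBP5, the immunophilin that opposes FKBP4 and is itself induced by the receptor, was at 53.1, 51.2 and 34.8 CPM in siFLI1 and at 16.2, 45.1 and 26.5 CPM in siControl. Its groups overlapped, at 0.70 ± 0.40 (SE) on the log2 scale with an adjusted p of 0.591 in edgeR. The value was 0.37 without siControl replicate 1 and 1.17 without siControl replicate 2, where the adjusted p in edgeR was 0.374.

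Among the wider heat shock genes 1 passed the test. Of 20 genes of the cytosolic HSP70, HSP40 and HSP110 machinery, 17 were tested and 0 passed, 9 with a positive and 8 with a negative value (median 0.09). HSPH1, an HSP110, was at −0.53 ± 0.31 on the log2 scale, the co-chaperone BAG1 at −0.64 ± 0.42 and the adaptor DNAJC7 at −0.52 ± 0.36 (SE; edgeR adjusted p from 0.605 to 0.677). Of 8 chaperones of the endoplasmic reticulum and mitochondria 0 passed, with a median of −0.30. Among them the mitochondrial chaperonin HSPD1 averaged 339 ± 19.6 CPM in siFLI1 and 520 ± 70.4 CPM in siControl (SD, n = 3 each), with −0.62 ± 0.25 (SE; edgeR adjusted p = 0.38). HSPA9, the mitochondrial HSP70, was at −0.35 ± 0.25 and HSP90B1, the HSP90 of the endoplasmic reticulum, at 0.38 ± 0.32.

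CRYAB, the small heat shock protein alpha-B crystallin (chromosome 11), was that gene. It had 67.7, 57.8 and 72.3 CPM in siFLI1 replicates 1, 2 and 3 and 2.15, 7.61 and 20.5 CPM in siControl replicates 1, 2 and 3. It rose by 2.78 ± 0.56 (SE) on the log2 scale, with an adjusted p of 0.021 in edgeR. The call was lost without siFLI1 replicate 1 (adjusted p = 0.107), siFLI1 replicate 2 (0.094) or siControl replicate 2 (0.181), at values of 2.74, 2.85 and 2.62. Without siControl replicate 3, the highest of its group, the value was 3.73. CRYAB was the member called among 4 tested heat shock factors and small heat shock proteins (median −0.13) and among 13 tested targets of heat shock factor 1 (median −0.08), since it stands in both lists. Heat shock factors HSF1 and HSF2 were at −0.02 ± 0.35 and −0.23 ± 0.37 and the small heat shock protein HSPB1 at −0.27 ± 0.27, which was 0.036 without siFLI1 replicate 3 and siControl replicate 1. Of the 13 targets 6 lay above and 7 below 0. The targets with the smallest p after CRYAB were HSPD1 and HSPH1, both given above with negative values.

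HSP90 clients and the chaperonin that folds actin and tubulin completed the lists. Of 16 HSP90 clients 10 were tested and 0 passed, with a median of 0.28. At an unadjusted p below 0.05 the edgeR test found 2 of the 10 higher, HIF1A and MET, and 0 lower, against 6.62% of all genes higher and 4.13% lower. At the same threshold it found 0 higher and 2 lower among the HSP90 partners, 0 and 0 in the HSP70 list, 0 and 1 among the chaperones of the endoplasmic reticulum and mitochondria, 1 and 0 among the heat shock factors and small heat shock proteins, 1 and 1 among the heat shock factor 1 targets, and 1 and 0 among the TRiC and prefoldin genes. The hypoxia factor HIF1A was at 131, 206 and 273 CPM in siFLI1 and at 107, 89.6 and 84.6 CPM in siControl, or 1.10 ± 0.29 (SE) on the log2 scale with an adjusted p of 0.0982 in edgeR. The receptor tyrosine kinase MET was at 80.5, 87.7 and 61.6 CPM in siFLI1 and at 46.3, 41.0 and 22.2 CPM in siControl, with 1.08 ± 0.33 (adjusted p = 0.172). For HIF1A and MET every siFLI1 library lay above every siControl library. The checkpoint kinase CHEK1 was at −0.63 ± 0.31 (edgeR adjusted p = 0.493), with every siFLI1 library below every siControl library. Of the 10 tested clients, groups did not overlap for 2 higher and 1 lower, against 8.93% and 7.71% of all genes. Of 14 TRiC and prefoldin genes 13 were tested and 0 passed, and 12 had a negative value (median −0.18), a sign that 49.6% of all tested genes had. The subunit PFDN5 was at 0.95 ± 0.32, CCT6A at −0.59 ± 0.28 and CCT4 at −0.40 ± 0.24 (edgeR adjusted p = 0.233, 0.467 and 0.613).

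**Figure D4:**
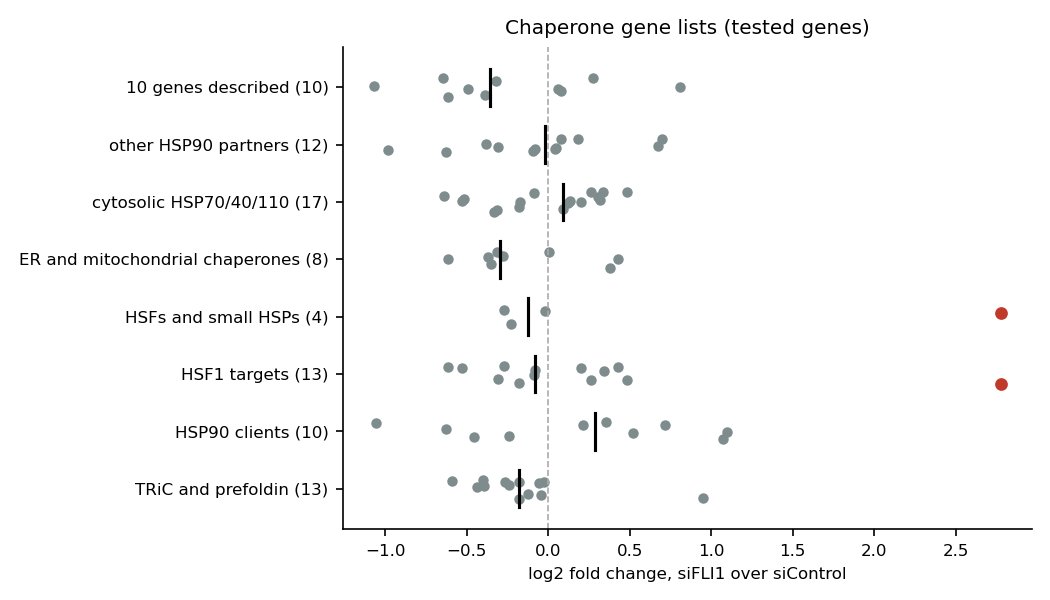
Log2 fold change of siFLI1 over siControl for the 10 genes and 7 lists of related genes, with the number tested in brackets. Points are genes, black bars are medians, and red marks an edgeR adjusted p below 0.05. The red point of both the small heat shock protein list and the heat shock factor 1 target list is CRYAB at 2.78.

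Other steroid receptors of the same subfamily of nuclear receptors had few counts. NR3C2, PGR, ESR1 and ESR2 failed the filter on low counts, and none of these 4 had more than 11 counts in a library, that being ESR1 in siFLI1 replicate 1. ESR1 had 0 counts in the other siFLI1 libraries and 0, 0 and 1 in siControl. NR3C2, the mineralocorticoid receptor, which also binds cortisol, had 2, 0 and 1 counts in siFLI1 and 0, 0 and 1 in siControl. A count of 0 allows up to 3 counts, or 1.99 CPM in siFLI1 replicate 2 and 8.03 CPM in siFLI1 replicate 3, and 1.62 CPM in siControl replicate 1 and 1.76 CPM in siControl replicate 2.

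**Figure D5:**
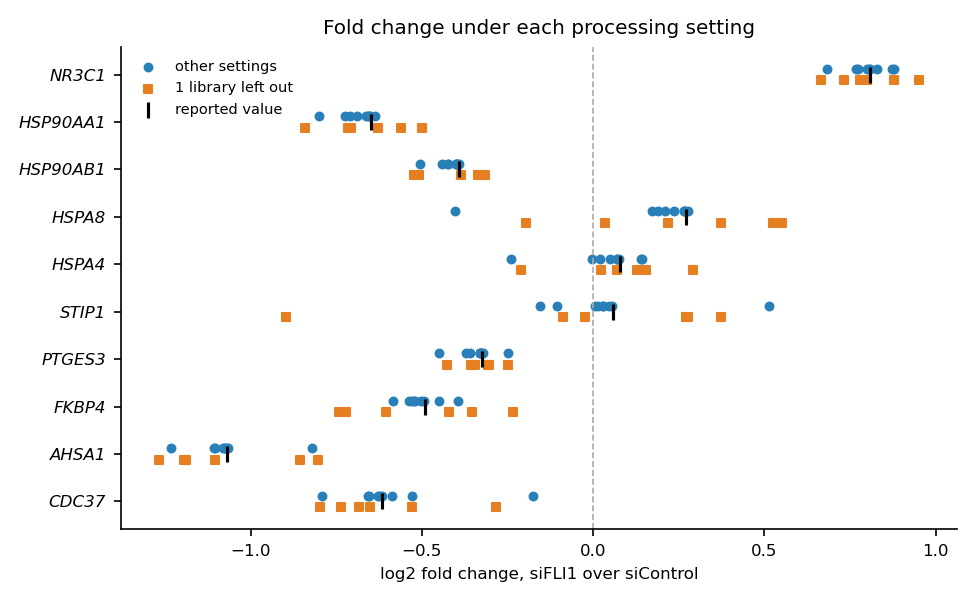
Log2 fold change of siFLI1 over siControl for the 10 genes under each setting. Black ticks are the reported values, blue circles other scalings, filters, tests, the replicate block and the fit that leaves out both libraries that stood apart, and orange squares fits without 1 library. NR3C1, HSP90AA1, HSP90AB1, PTGES3, FKBP4, AHSA1 and CDC37 stay on 1 side of 0, and HSPA8, HSPA4 and STIP1 cross it.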

How the data were processed

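The deposited values are raw exon counts, 1 RefSeq transcript standing for each gene, from 6 libraries made, per the labels' protocols, with a 3' method that adds a molecular barcode to each molecule. The submitters' processing notes name bcl2fastq, HISAT 0.1.5, HOMER and hg38. Barcode collapsing and strand use were not given in the sources used here. PCR copies may remain in the counts. Nothing in the labels says that libraries came from separate cultures, and p-values then measure only the spread between these libraries.

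Genes were filtered with filterByExpr (minimum count 10, total 15), scaled by TMM over the kept genes and compared by the two-sided quasi-likelihood test of edgeR 4.0.16 (robust glmQLFit, glmQLFTest; R 4.3.3) and Benjamini-Hochberg adjustment over all 9420 genes. DESeq2 1.42.0 and limma 3.58.1 were alternatives. Standard errors come from the F statistic. Counts of replicate libraries differed beyond sampling noise (lowest chi-square 7.48 per degree of freedom). Promoter windows came from RefSeq and gene ends from GENCODE 29.

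Members and lists were chosen with earlier results of these data known. The genes named are the 10 members, FLI1, of each list those called plus up to 3 with the smallest p, and the 3 genes most like NR3C1 and HSP90AA1. HSF1, TRAP1, PFDN1, HSPE1, HSP90AB4P and the steroid receptors fall outside that rule and were chosen after their values were seen. Poisson intervals and the floor of 3 counts allow for counting error alone.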

Additional observations from a re-analysis of the deposited data

How the results depend on the processing

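The count of 0 called members at an adjusted p of 0.05 held in every setting, and the reported fit also called 0 at a threshold of 0.1. HSP90AA1 had an edgeR adjusted p of 0.0719 without siFLI1 replicate 3 and siControl replicate 1. At an unadjusted p below 0.05 the members lower numbered 1 with the replicate block and 1 without siFLI1 replicate 3 and siControl replicate 1 (a fit chosen after seeing the data), and 0 to 2 without 1 library. Members higher numbered 1 in limma-voom and 0 to 1 without 1 library, the 1 being NR3C1. Over all genes the same threshold found 312 of 9420 lower with the replicate block and 672 of 9420 higher in limma-voom. Without siFLI1 replicate 3 and siControl replicate 1 it found 563 of 9577 lower. Without 1 library it found 263 to 434 lower and 518 to 640 higher, of 9802 to 10102 genes. Members whose groups do not overlap numbered 5 lower and 1 higher under total counts or upper quartile scaling. The share of all genes whose groups do not overlap was worked out for the reported fit only, so these counts have no background beside them. The median log2 fold change of all genes was itself lower under both, at −0.12 and −0.031. The median of heat shock factor 1 targets was −0.21 under total counts and 0.13 in limma-voom, and −0.093 to 0.15 without 1 library. The median of HSP90 clients was −0.028 without siFLI1 replicate 3 and siControl replicate 1, and −0.075 to 0.49 without 1 library. Without 1 library the HSP70 list's median ran from −0.13 to 0.16, that of endoplasmic reticulum and mitochondrial chaperones from −0.38 to −0.020, and the calls in both lists with CRYAB from 0 to 1. The causes were not tested. Total counts moved the median of all genes to −0.12 and the split at an unadjusted p below 0.05 to 442 higher and 526 lower, against 624 and 389. Over all genes 137 were called, against 217 in DESeq2 and 368 with no filter on low counts, and from 65 to 126 without 1 library. For same-numbered libraries the labels give only the shared number. Their deviations from the group means correlated at −0.03, −0.01 and −0.05, and 0 of 6 libraries correlated best with its own number. With 3 libraries per group, centred on their own mean, these values cannot decide whether such libraries shared a culture or batch. The fit with the replicate block called 99 genes higher and 2 lower. At this depth STIP1, at 2 to 38 counts a library, allows no statement on its direction.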

Other observations

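Some chaperone genes of the lists varied widely over the 6 libraries. TRAP1, the mitochondrial HSP90, had 403, 173 and 64.3 CPM in siFLI1 replicates 1, 2 and 3 and 139, 189 and 526 CPM in siControl replicates 1, 2 and 3, an 8.19-fold range over both groups, with the lowest value in siFLI1 replicate 3 and the highest in siControl replicate 3. PFDN1, a prefoldin subunit, was at 669, 417 and 190 CPM in siFLI1 and at 166, 469 and 710 CPM in siControl, a 4.27-fold range over both groups. In both genes the order of libraries within each group was the same. HSPE1, the mitochondrial co-chaperonin, was at 15570, 15391 and 32580 CPM in siFLI1 and at 10964, 18619 and 17659 CPM in siControl, and GENCODE 29 lists 26 pseudogenes of it.

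HSPA8 took 42.5%, 49.9% and 62.4% of the summed CPM of the 9 chaperone genes in siFLI1 replicates 1, 2 and 3, and 32.6%, 48.6% and 40.3% in siControl replicates 1, 2 and 3. The sum of the other 8 was at 2438, 2492 and 2774 CPM in siFLI1 and at 3578, 3514 and 3396.5 CPM in siControl. The sum of all 9 overlapped between groups, averaging 5530 ± 1643 CPM in siFLI1 against 5947 ± 797 CPM in siControl (SD, n = 3 each), and the sum without HSPA8 did not. Most of the sum without HSPA8 was HSP90AA1 and HSP90AB1, at a mean of 1667 of 2568 CPM in siFLI1 and 2472 of 3496 CPM in siControl. Its separation is therefore not a result apart from the HSP90 sum given above. HSPA8 was singled out after its values were seen, so this split is a description.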
